A study of Homo sapiens with 6 samples.

Results

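The 60 genes described here encode proteins that copy DNA and divide the cell. They were given as a list of symbols, and their probes were found by the gene symbol of the platform annotation, out of 18852 genes named on the array. All 60 had a probe, 35 of them a single one, and the probe with the highest mean raw signal over the 6 arrays stood for a gene. The cells were HEK293, an established human embryonic kidney line. Control cells (3 samples) were grown for 3 days in complete medium, and treated cells (3 samples) for 3 days in medium with all-trans retinoic acid (tRA), which activates nuclear receptors of the RAR family, plus N6,2'-O-dibutyryl-cAMP (cAMP), a cell-permeable form of cyclic AMP. Both agents were given together as differentiating agents, and no dose is stated here. HEK293 is a single transformed line that carries adenoviral sequences known to override the retinoblastoma protein, which limits it as a model of how cells leave the cell cycle. The study asked which transcripts the agents change; here the question is put to the cell cycle machinery.

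A dividing cell passes from G1 into S phase when cyclin E and its kinase inactivate the retinoblastoma family, which frees E2F transcription factors to turn on replication genes. Origins are licensed by loading of the MCM helicase, forks are then built around it, and nucleotide enzymes supply the building blocks. In G2 a second set of genes supplies cyclin B, the mitotic kinases, the spindle and the checkpoint that holds back anaphase. The DREAM complex represses these genes, and B-MYB and FOXM1 drive them. Transcripts of both sets are known to fall together when cells stop dividing, which is often part of differentiation.

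The promoters of these genes carry short motifs that mark the 2 waves, and a few are shown to let the genes behind the main values be seen. Of the 60 genes 51 matched a RefSeq promoter window (GRCh38.p14, 250 bases before to 50 after the start), with 68 windows in all because 11 genes had more than 1. Each stretch printed here is the 150 bases before the start, 5′ to 3′ on the gene's strand. Capitals mark matches on either strand to CCAAT (the box bound by NF-Y), TTCCCGC or TTGGCGC (2 forms of the E2F site) and TTTGAA or TTTAAA (the cell cycle genes homology region, CHR). The first set holds S phase genes with an E2F form, among them E2F1 itself and POLA1.
E2F1 (chr20:33686386-33686535, minus strand): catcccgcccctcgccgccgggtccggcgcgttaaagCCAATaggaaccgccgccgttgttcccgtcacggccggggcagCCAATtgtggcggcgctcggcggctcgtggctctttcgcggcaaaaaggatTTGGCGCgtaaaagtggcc
POLA1 (chrX:24693768-24693917, plus strand): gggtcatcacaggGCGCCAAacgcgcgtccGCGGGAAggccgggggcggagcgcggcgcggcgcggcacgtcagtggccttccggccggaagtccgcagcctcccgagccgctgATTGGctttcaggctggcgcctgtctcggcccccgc
MCM6 (chr2:135876444-135876593, minus strand): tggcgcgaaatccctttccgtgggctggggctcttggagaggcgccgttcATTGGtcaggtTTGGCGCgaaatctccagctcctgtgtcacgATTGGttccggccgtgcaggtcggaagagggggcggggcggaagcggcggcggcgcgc
MCM3 (chr6:52284743-52284892, minus strand): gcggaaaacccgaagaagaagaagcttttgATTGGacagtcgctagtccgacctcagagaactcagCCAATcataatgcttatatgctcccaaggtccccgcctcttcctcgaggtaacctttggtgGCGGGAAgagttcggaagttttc
The second set holds mitotic genes with a CHR.
CCNB1 (chr5:69167000-69167149, plus strand): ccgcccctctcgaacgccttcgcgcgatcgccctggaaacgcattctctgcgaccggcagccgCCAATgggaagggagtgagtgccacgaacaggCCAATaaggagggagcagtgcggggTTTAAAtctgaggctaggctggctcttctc
CCNB2 (chr15:59104996-59105145, plus strand): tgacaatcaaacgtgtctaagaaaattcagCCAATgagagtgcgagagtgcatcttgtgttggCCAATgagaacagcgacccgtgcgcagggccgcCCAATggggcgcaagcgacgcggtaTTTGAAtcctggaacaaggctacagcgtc
PLK1 (chr16:23678739-23678888, plus strand): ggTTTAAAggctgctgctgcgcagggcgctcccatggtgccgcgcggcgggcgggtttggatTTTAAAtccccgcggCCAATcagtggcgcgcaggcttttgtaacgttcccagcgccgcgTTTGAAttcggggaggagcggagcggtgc
CDC20 (chr1:43358831-43358980, plus strand): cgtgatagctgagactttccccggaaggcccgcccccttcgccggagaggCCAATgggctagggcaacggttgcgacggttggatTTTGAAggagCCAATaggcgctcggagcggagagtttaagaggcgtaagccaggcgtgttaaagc
MKI67 (chr10:128126424-128126573, minus strand): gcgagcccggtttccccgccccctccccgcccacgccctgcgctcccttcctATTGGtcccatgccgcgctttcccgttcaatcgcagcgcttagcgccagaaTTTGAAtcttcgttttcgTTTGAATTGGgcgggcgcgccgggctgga
A CHR form began 29 bases before the start in CCNB2, PLK1 and MKI67, 30 bases before it in CCNB1 and 65 bases before it in CDC20. Further matches began 47 bases before the start in MKI67 and 88 and 148 bases before it in PLK1.

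An E2F form was found in 64.9% of 37 windows of the G1/S and replication genes and in 22.6% of 31 windows of the mitosis genes, against 14.1% of the 12147 windows of all genes tested and 9.23% of all 35116 windows. A CHR form was found in 71.0% of the mitosis windows and 13.5% of the G1/S and replication windows, against 17.2% of windows of genes tested and 24.0% of all windows. A CCAAT box was found in 80.6% and 62.2%, against 35.4% of windows of genes tested and 34.6% of all windows. In 3 windows of 3 members a CCAAT match overlapped an E2F match. The cAMP response element TGACGTCA, the site of CREB, was found in 4.41% of the 68 member windows, against 3.05% of windows of genes tested and 1.85% of all windows, and the retinoid half-site AGGTCA in 10.3%, against 9.99% and 13.8%. A match describes these letters in these windows and does not show that a factor binds there.

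**Figure D1:**
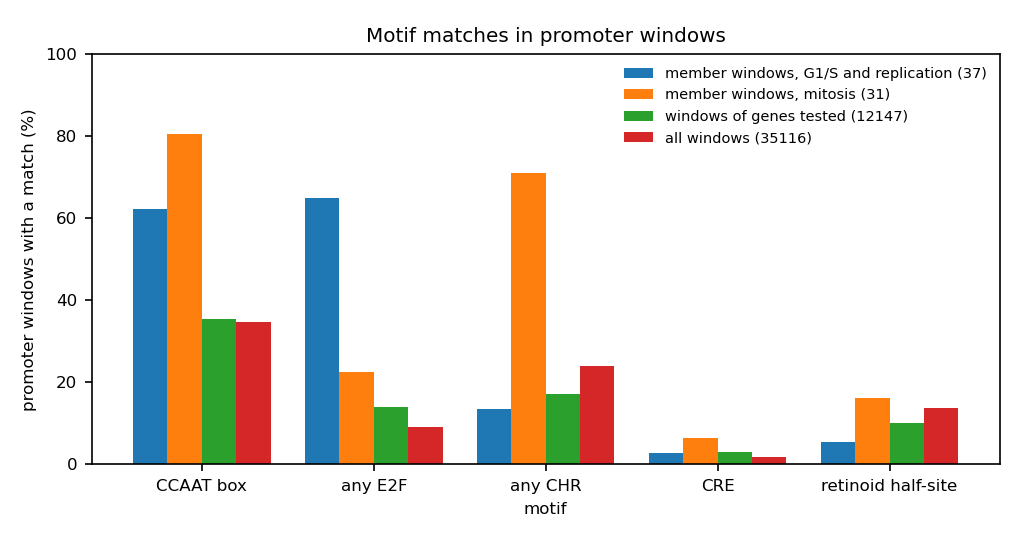
Share of 300-base promoter windows (y axis, percent) with at least 1 match on either strand, for 5 motifs (x axis) and 4 sets of windows with their number in the legend. The E2F bar is highest for the G1/S and replication genes (64.9%), and the CHR bar for the mitosis genes (71.0%).

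On the arrays these genes were nearly flat. The filter asked for a detection p-value (the rank of a probe among the negative controls) under 0.01 on every array of at least 1 group, and 56 of the 60 genes met it; all 56 were detected on all 6 arrays, so the filter did not select them by group. Among them 0 rose and 0 fell (limma, Benjamini-Hochberg adjusted p under 0.05 over 9944 genes), where 2.53% of all genes tested passed (1.09% higher, 1.45% lower). A single member, POLA1, had an unadjusted p under 0.05, which is 1.79% of the members against 14.2% of all genes tested. The median log2 difference of the members, treated minus control, was -0.0050, and that of all genes tested 0.0018, with 27 members higher and 29 lower. The median size of the difference, sign aside, was 0.061 for the members and 0.131 for all genes tested. In 7 members (12.5%) the treated arrays lay wholly above or below the controls, and 18.9% of all genes tested did so. The exception among the 4 genes below the filter is E2F1, described with the G1/S regulators.

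How large a change the arrays leave possible was read from the 95% interval of each difference. In 54 of the 56 members (96.4%) the interval lay within 1.5-fold in either direction (0.585 on the log2 scale), against 75.5% of all genes tested. RFC3 and MKI67 were the other two, with bounds reaching 0.66 and -0.75. Among the probes that stood for the genes, the widest interval thus left room for a 1.68-fold difference, in MKI67. Bounds of further tested probes reached beyond this, up to 1.08 on the log2 scale in an MCM7 probe. These intervals are not adjusted for their number, and arrays of a group differed less for the members (median SD 0.133 on the log2 scale) than for all genes tested (0.166). Each array reports an average over all cells of a sample, so a smaller share of cycling cells and less transcript per cycling cell cannot be told apart, and a change in total RNA per cell is removed by the normalization.

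**Figure D2:**
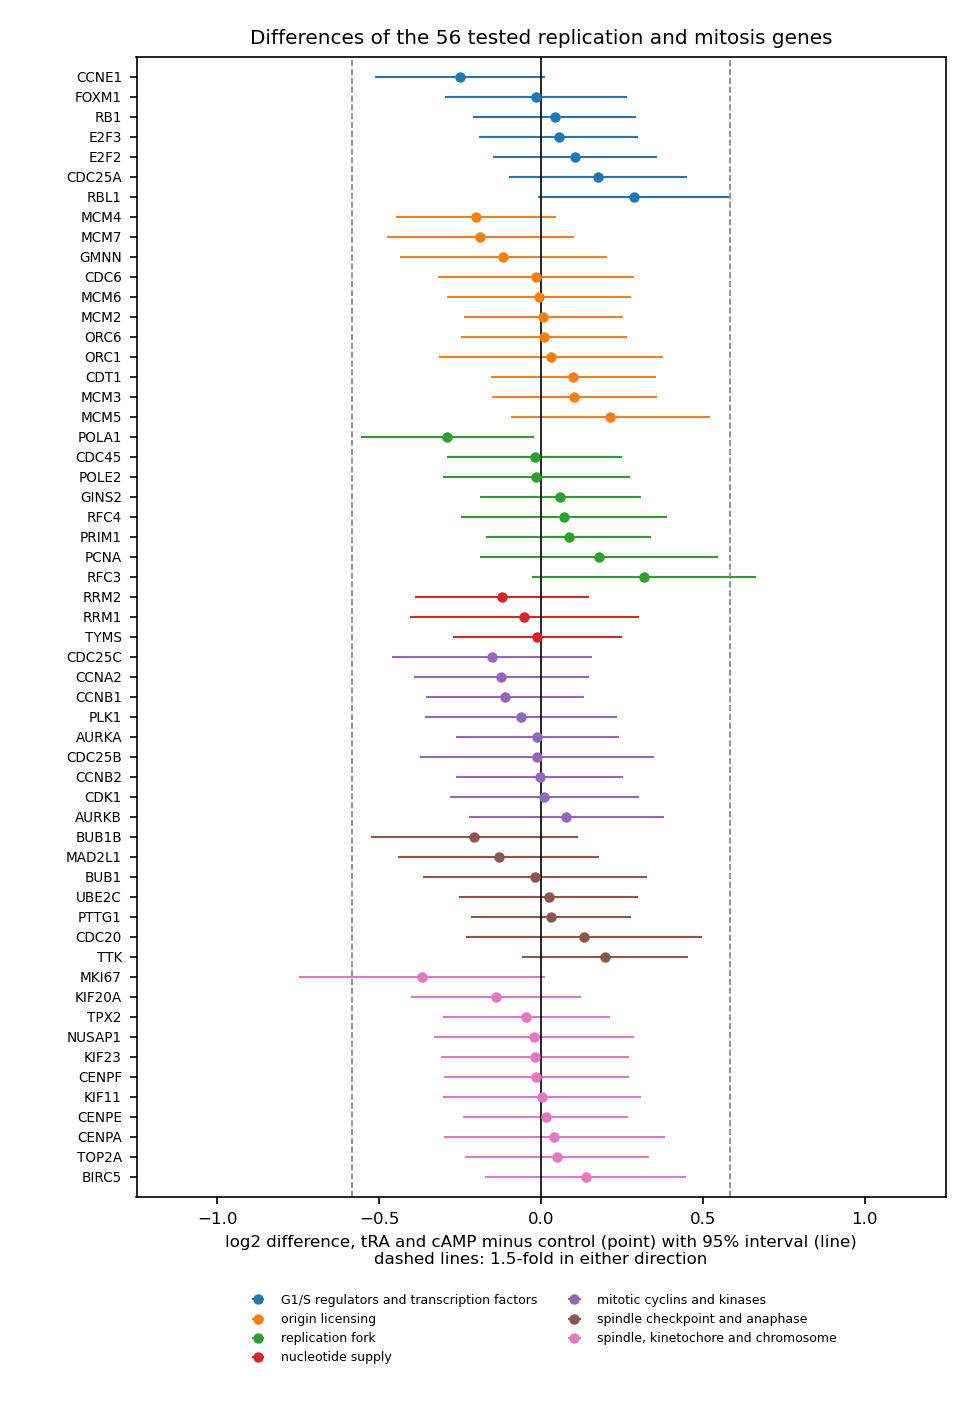
Log2 difference, treated minus control, of the 56 tested genes (points, n = 3 per group) with its 95% interval (lines), coloured by role; dashed lines mark 1.5-fold. All intervals but those of POLA1 include 0, and all but those of RFC3 and MKI67 stay inside the dashed lines.

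Listed targets of retinoic acid or cAMP, chosen with their rise in these samples known and given as a description, differed by 1.04 (PDE4D) to 5.66 (CYP26A1) on the log2 scale in 6 genes. CGA was detected on 0 control and 3 treated arrays. Between 30.3% and 33% of the 48803 probes were detected per array, and with 3 arrays a group their number sets the precision. No label states separate cultures, so the p-values reflect the spread of these samples alone, possibly a technical one. All 6 arrays lay on 1 chip with controls in the first positions, and chip position cannot be told apart from treatment. Of the markers listed for HEK293, VIM, KRT8, KRT18, NEFL and LHX1 passed the filter and PAX2 was detected on 0 arrays. The summed linear intensity of these 6 was 45500 to 52000 on control and 35700 to 38900 on treated arrays, with 0 called (VIM -0.50; limma, adjusted p = 0.0565). That sum mainly follows VIM, whose mean log2 intensity, 15.32 on control and 14.82 on treated arrays, was the highest of these markers. KRT8 and LHX1 went the other way (0.26 and 0.49), and KRT18 and NEFL differed by -0.02 and -0.14. Of 7 fibroblast markers 4 fell (COL3A1, LUM, S100A4 and TAGLN). LUM was detected on 3 control arrays and 1 treated array and TAGLN on 3 and 0, so both entered the test through the controls alone. The summed linear intensity of the 7 was 8610 to 9850 on control and 3240 to 4180 on treated arrays, with COL1A2 and DCN detected on 0 arrays. The sum over the 4 blood cell markers with a probe was 496 to 681 and 638 to 795, with PTPRC and CD3E detected on 0 arrays. Over the 5 endothelial markers it was 676 to 798 and 384 to 676, with CDH5, KDR and TEK detected on 0 and VWF lower. VWF, detected on 3 control arrays and 1 treated array, also entered through the controls alone. The part of these marker genes in the results was not tested.

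Among the G1/S regulators and transcription factors, 7 of 10 genes were tested and 0 were called. CCNE1, cyclin E1, which with CDK2 drives entry into S phase, read 10.91, 10.98 and 10.99 (normalized log2 intensity) on control arrays and 10.65, 10.64 and 10.85 on treated arrays. Its treated arrays all lay below the controls, a log2 difference of -0.25 (standard error 0.12; limma, adjusted p = 0.378). RBL1, the pocket protein p107, which holds E2F genes in check, went the other way. It read 10.18, 9.85 and 10.16 on control arrays and 10.29, 10.47 and 10.29 on treated arrays, a difference of 0.29 (standard error 0.13; limma, adjusted p = 0.373), again without overlap. CDC25A, a phosphatase that activates CDKs, read 11.58, 11.64 and 11.77 against 11.87, 11.95 and 11.69, so its groups overlapped (0.18, standard error 0.12; limma, adjusted p = 0.588). The differences of RB1, E2F2, E2F3 and FOXM1, the retinoblastoma protein, 2 activator E2Fs and the transcription factor of the G2 wave, lay between -0.02 and 0.10.

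E2F1, the E2F best known for turning on S phase genes, was not tested because its treated array 3 just missed the filter, and it is singled out after its values were seen. Its probe had detection p-values of 0.0777, 0.0422 and 0.0474 on control arrays and 0.00527, 0.00659 and 0.0105 on treated arrays. Its log2 intensity was 6.31, 6.78 and 6.68 on control and 8.04, 7.62 and 7.64 on treated arrays, with all treated arrays above all controls. Since no control array was above background at 0.01, only a bound holds: the treated mean of 7.77 was at least 1.21-fold above the lowest detectable signal of the control arrays, and at least 1.10-fold with the background left in. Without the filter E2F1 was past the threshold (limma, adjusted p = 0.0258 over 18852 genes; 0.0238 with the background left in). The fitted differences, 1.18 and 0.52 on the log2 scale, rest on control signals that missed the detection limit of 0.01 and are no measure of its size. E2F1 was also called with a detection limit of 0.05, chosen after seeing the data, and without treated replicate 3 (limma, adjusted p = 0.0121 and 0.0122). It enters both of those fits through the treated arrays alone, where it is high, so these calls give its rise no support. E2F2 read 12.26, 12.36 and 12.39 on control arrays and 12.38, 12.42 and 12.52 on treated arrays. E2F3 read 13.18, 13.22 and 13.28 and then 13.32, 13.23 and 13.29. Both of these activator E2Fs overlapped between the groups. CCNE2, cyclin E2, and MYBL2, the B-MYB factor, were each detected on 0 arrays, with log2 intensities of 5.54 to 6.12 and 6.78 to 7.25, as was GINS1, a subunit of the replicative helicase, at 5.72 to 6.49. Detection p-values of MYBL2, 0.0132 to 0.0329, just missed 0.01, while those of CCNE2 were 0.13 to 0.568 and those of GINS1 0.0527 to 0.348. With the detection limit of 0.05 MYBL2 was tested and differed by -0.07 (limma, adjusted p = 0.909).

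**Figure D3:**
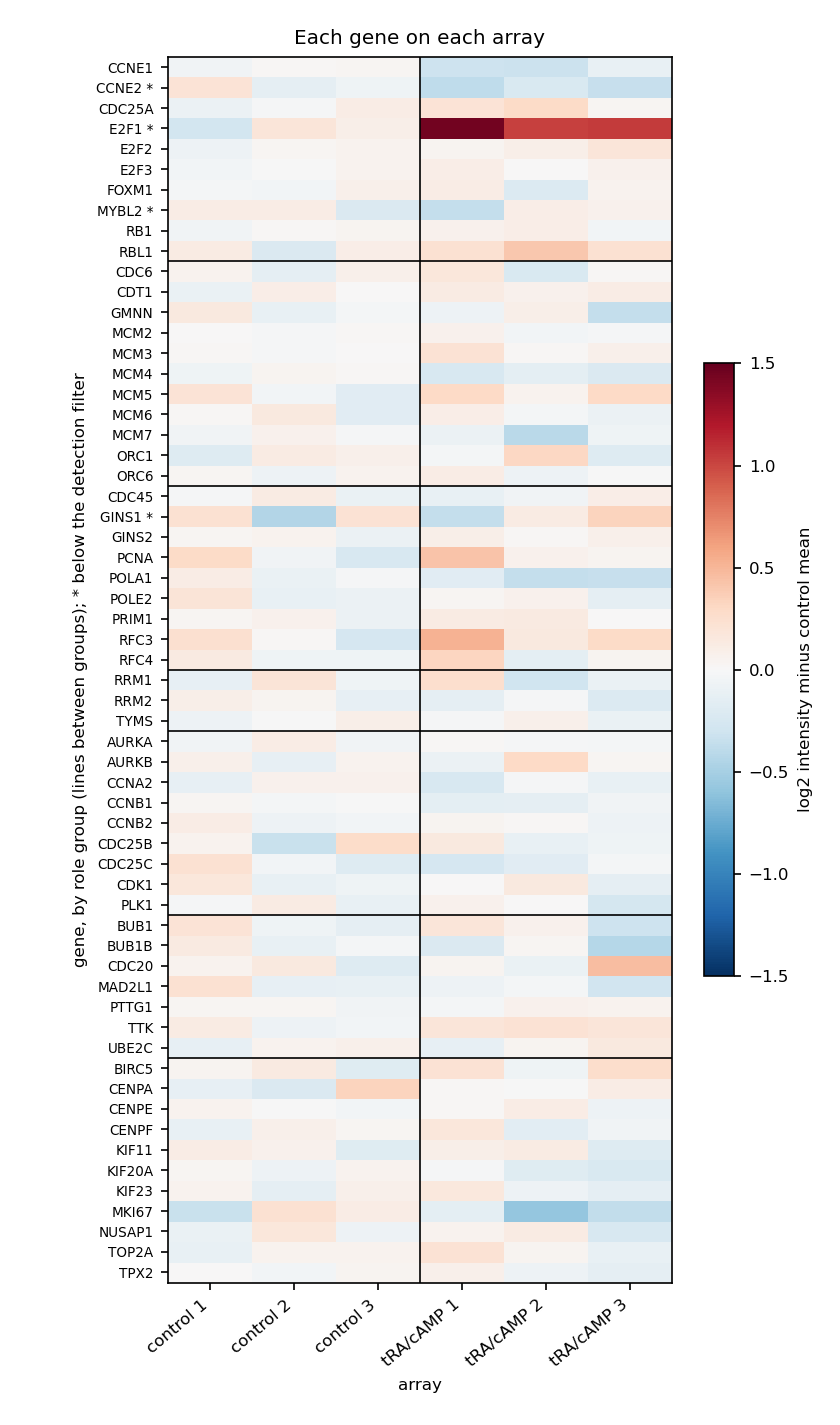
Each of the 60 genes (rows, grouped by role) on each array (columns), coloured by log2 intensity minus the mean of the 3 control arrays; asterisks mark the 4 genes below the detection filter. E2F1 stands out as high on all 3 treated arrays, and the other rows show small differences of either sign.

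All 11 origin licensing genes were tested and 0 were called. ORC1 and ORC6 are subunits of the origin recognition complex, CDC6 and CDT1 load the MCM ring onto it, and geminin (GMNN) blocks CDT1 after S phase begins; their differences lay between -0.12 (GMNN) and 0.10 (CDT1). The 6 subunits of the MCM helicase ring ranged from -0.20 to 0.21. MCM4 read 13.94, 14.04 and 14.01 on control and 13.76, 13.85 and 13.78 on treated arrays, all treated arrays lower (-0.20, standard error 0.11; limma, adjusted p = 0.474). MCM5 read 12.12, 11.88 and 11.75 on control and 12.21, 11.96 and 12.21 on treated arrays, with overlap (0.21, standard error 0.14; limma, adjusted p = 0.547). MCM7 read 14.87, 14.98 and 14.90 on control and 14.83, 14.51 and 14.85 on treated arrays (-0.19, standard error 0.13; limma, adjusted p = 0.582). Treated array 2 was the lowest, and the groups did not overlap. MCM2, MCM3 and MCM6 differed by 0.01, 0.10 and -0.01.

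Of the 9 replication fork genes 8 were tested and 0 were called. POLA1, the catalytic subunit of DNA polymerase alpha, which starts each new strand with the primase, read 13.18, 12.98 and 13.06 on control and 12.90, 12.72 and 12.73 on treated arrays. All treated arrays lay below all controls, and the difference of -0.29 (standard error 0.12; unadjusted p = 0.0358; limma, adjusted p = 0.303) was the smallest p of the tested members. Its other probe differed by 0.05 (standard error 0.14). RFC3, a subunit of the clamp loader, read 12.14, 11.91 and 11.65 on control and 12.42, 12.05 and 12.18 on treated arrays, and differed by 0.32 (standard error 0.16; limma, adjusted p = 0.397). PCNA, the sliding clamp that RFC loads, read 14.41, 14.06 and 13.88 and then 14.55, 14.18 and 14.16 (0.18, standard error 0.17; limma, adjusted p = 0.714). Both overlapped between the groups. PRIM1, the primase that works with POLA1, CDC45 and GINS2 of the helicase, POLE2 of polymerase epsilon and RFC4 of the clamp loader differed by -0.02 to 0.08. The 3 genes of nucleotide supply overlapped as well. RRM1 and RRM2, the subunits of ribonucleotide reductase, differed by -0.05 and -0.12, and thymidylate synthase (TYMS) by -0.01 (limma, adjusted p = 0.925, 0.741 and 0.98). RRM2 read 13.25, 13.20 and 13.04 on control and 13.02, 13.14 and 12.96 on treated arrays. RRM1 read 14.82, 15.13 and 14.87 and then 15.18, 14.64 and 14.83. TYMS read 14.71, 14.78 and 14.88 and then 14.77, 14.87 and 14.70. In all 3 genes control and treated values interleaved.

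The 9 mitotic cyclins and kinases were all tested and 0 were called, with differences of -0.15 to 0.08 and 7 of 9 below 0. CCNB1, cyclin B1, the partner of CDK1 that starts mitosis, read 11.64, 11.58 and 11.60 on control and 11.46, 11.47 and 11.55 on treated arrays. The groups did not overlap, but the difference was -0.11 (standard error 0.11; limma, adjusted p = 0.735). CCNA2, cyclin A2, read 12.93, 13.11 and 13.11 and then 12.81, 13.03 and 12.93 (-0.12, standard error 0.12; limma, adjusted p = 0.734). CDC25C, the phosphatase that activates CDK1, read 11.79, 11.52 and 11.37 and then 11.31, 11.39 and 11.53 (-0.15, standard error 0.14; limma, adjusted p = 0.704). CCNA2 and CDC25C overlapped between the groups. CDK1 itself differed by 0.01, CCNB2 by 0.00, the kinases AURKA, AURKB and PLK1 by -0.01, 0.08 and -0.06, and the phosphatase CDC25B by -0.01.

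The 7 genes of the spindle checkpoint and of anaphase included 0 called genes. TTK, the checkpoint kinase MPS1, read 12.46, 12.25 and 12.28 on control and 12.52, 12.55 and 12.51 on treated arrays, all treated arrays higher (0.20, standard error 0.12; limma, adjusted p = 0.504). BUB1B, the checkpoint protein BubR1, read 10.62, 10.38 and 10.46 and then 10.27, 10.52 and 10.06 (-0.21, standard error 0.14; limma, adjusted p = 0.586). MAD2L1, which carries the checkpoint signal to CDC20, read 13.28, 12.92 and 12.94 and then 12.97, 13.01 and 12.76 (-0.13, standard error 0.14; limma, adjusted p = 0.757). The groups overlapped in BUB1B and in MAD2L1. CDC20, the activator of the anaphase-promoting complex in mitosis, differed by 0.13 with its highest value, 14.20, on treated array 3; BUB1 differed by -0.02, securin (PTTG1) by 0.03 and the ubiquitin-conjugating enzyme UBE2C by 0.02.

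Of the 11 genes of the spindle, the kinetochore and the chromosomes 0 were called. MKI67, which encodes the proliferation marker Ki-67, read 8.95, 9.51 and 9.40 on control and 9.13, 8.71 and 8.91 on treated arrays. Control array 1 lay among the treated arrays, and the difference of -0.37 (standard error 0.17; limma, adjusted p = 0.374) was the largest decrease of the tested members. Over all 17 alternatives its adjusted p stayed between 0.168 and 0.67, the lowest without control replicate 1, where the difference was -0.54. MKI67 had 1 probe, with low raw signals of 571 to 896. With the background left in its difference was -0.27, and the largest decrease was then that of POLA1 (-0.28). KIF20A, a kinesin of cytokinesis, read 12.71, 12.59 and 12.72 and then 12.66, 12.49 and 12.45 (-0.14, standard error 0.12; limma, adjusted p = 0.666). BIRC5, survivin, of the chromosomal passenger complex, read 13.02, 13.11 and 12.80 and then 13.20, 12.91 and 13.24 (0.14, standard error 0.14; limma, adjusted p = 0.746). Both overlapped between the groups. The other 8 genes, among them the centromere proteins CENPA, CENPE and CENPF, the kinesins KIF11 and KIF23, the spindle proteins TPX2 and NUSAP1 and topoisomerase TOP2A, differed by -0.05 to 0.05.

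Taken array by array, the members as a whole moved by little. Measured as each gene's deviation from its own mean over the 6 arrays, the median over the 56 members was 0.02, -0.01 and -0.02 on control arrays and 0.06, -0.01 and -0.05 on treated arrays, so the highest and the lowest array were both treated. For the group of spindle, kinetochore and chromosome genes the medians were -0.03, 0.03 and 0.04 on control and 0.08, -0.06 and -0.13 on treated arrays, which overlap. For the 7 G1/S regulators and transcription factors they were -0.07, -0.04 and 0.02 on control and 0.07, 0.03 and 0.04 on treated arrays. There all treated medians lay above all control medians, while in every other one of the 7 role groups control and treated medians overlapped. This separation was seen in 1 of 7 groups and was not tested. Among single genes, the arrays of the 2 groups separated in 18.9% of all genes tested. Within the G1/S group 5 genes were higher and 2 lower, and CCNE1 separated downward.

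Probes of 1 gene gave a second reading of 23 members, through 25 further tested probes. Of these 17 had the sign of the probe used and 8 the opposite sign, and 0 passed the threshold adjusted over all tested probes. In limma 5 of the 25 had an unadjusted p under 0.05, against 1 of the 56 probes used (1.79%) and 14.2% of all genes tested. The low share among the members thus holds for the probe with the highest signal of each gene. Of the 5 further probes, those of CDC25A and MCM7 opposed the probe used. A second CDC25A probe differed by -0.35 (standard error 0.16) where the first was higher, and an MCM7 probe was higher by 0.58 (standard error 0.22) where the MCM7 probe used differed by -0.19 and another by -0.12. The other three kept the sign of the probe used: UBE2C differed by 0.47 (standard error 0.14), PCNA by 0.44 (standard error 0.15) and MCM4 by -0.39 (standard error 0.13). The files do not say which transcripts each probe reads. With the mean of probes in place of the probe used, CDC25A and MCM7 changed sign, to -0.09 and 0.09, and stayed without a call.

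**Figure D4:**
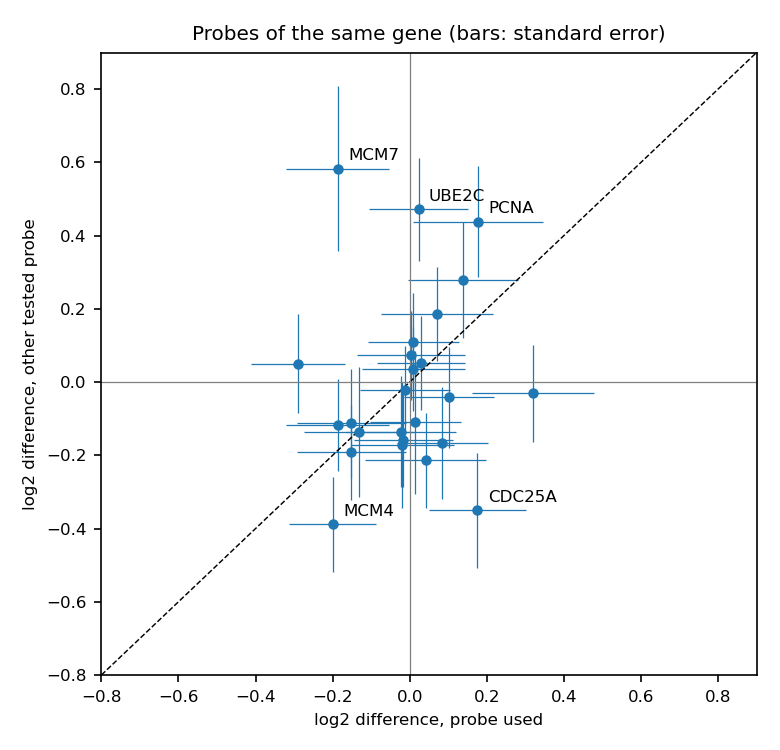
Log2 difference, treated minus control, of 25 further tested probes (y axis) against that of the probe used for the same gene (x axis), with standard errors; the dashed line marks equal values. The 5 probes with an unadjusted p under 0.05 are named, and those of MCM7 and CDC25A lie in quadrants of opposite sign.

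Around the members, 108 further cell cycle genes from 6 lists were tested, and 1 rose and 3 fell, which is read beside 2.53% of all genes tested. Of the 3, FZR1 met the filter through the control arrays alone, where it is high. None of 29 other fork and licensing genes, 5 nucleotide supply genes and 37 mitosis genes was called by limma, with 2, 0 and 2 at an unadjusted p under 0.05. Such a p was reached by 1 of 11 genes of the anaphase-promoting complex, by 2 of 13 pocket protein, E2F and DREAM genes (15.4%) and by 5 of 13 G1 cyclins, CDKs and inhibitors (38.5%), beside 14.2% of all genes tested. In the lists without a call these were RPA2, of the single-strand binding protein (0.40), GINS3 of the helicase (0.30), CKS1B, a CDK subunit (0.31), and lamin B1, LMNB1 (-0.39). E2F8, an atypical E2F that represses E2F1 targets, read 7.82, 8.05 and 8.09 on control and 8.78, 8.54 and 8.78 on treated arrays, and rose 1.64-fold (limma, adjusted p = 0.0167). It was the called gene of 13 tested pocket protein, E2F and DREAM genes, where LIN9 and LIN37, subunits of MuvB, differed by 0.38 and 0.35 without a call. LIN37, detected on 2 control and 3 treated arrays, entered the test through the treated arrays alone, where its mean is higher. Its difference thus gives a rise no support.

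FZR1, which encodes CDH1, the activator of the anaphase-promoting complex in G1, read 8.46, 8.50 and 8.53 on control and 7.99, 7.76 and 7.66 on treated arrays. It fell 1.62-fold (limma, adjusted p = 0.0155) and was the called gene of 11 tested genes of the complex. Detected on 3 control and 2 treated arrays, it entered the test through the control arrays alone, where it is high. This call thus gives its fall no support. CCND1, cyclin D1, which with CDK4 and CDK6 begins the inactivation of the retinoblastoma protein, read 12.22, 12.23 and 12.29 and then 11.54, 11.66 and 11.63, and fell 1.56-fold (limma, adjusted p = 0.0144). CDKN1C, the CDK inhibitor p57, read 9.53, 9.90 and 10.32 and then 9.05, 8.57 and 8.68, and fell 2.21-fold (limma, adjusted p = 0.0144). In these 4 genes the groups did not overlap on any array. The same held for 23 of the 108 further cell cycle genes (21.3%), these 4 included, and for 18.9% of all genes tested. MYC, a transcription factor that promotes growth, differed by -0.48 (limma, adjusted p = 0.121). The other two of the 5 genes in that last list, named after their values were seen, were the CDK inhibitor CDKN1A (p21), with -0.40, and the kinase CDK4, with -0.28 (limma, adjusted p = 0.218 and 0.323).

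Each of these 4 calls was lost under some settings. E2F8 missed the threshold without normalization, without a filter, with a robust fit and variance trend, and when control 1, control 2, treated 1 or treated 3 was left out (limma, adjusted p over all 17 alternatives 0.0149 to 0.172). FZR1 missed it with the background left in, in the authors' deposited normalized table, without a filter, with the robust fit and when any array other than treated 1 was left out (0.014 to 0.0821 over 16 alternatives). CCND1 missed it without normalization, without a filter and on leaving out control 2, control 3, treated 1 or treated 2 (0.000805 to 0.0634), and CDKN1C without a filter and on leaving out control 2, treated 2 or treated 3 (0.000767 to 0.0734). All 4 kept their direction in every alternative that tested them. With the background left in the difference of E2F8 was 0.44 and that of FZR1 -0.40 on the log2 scale.

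**Figure D5:**
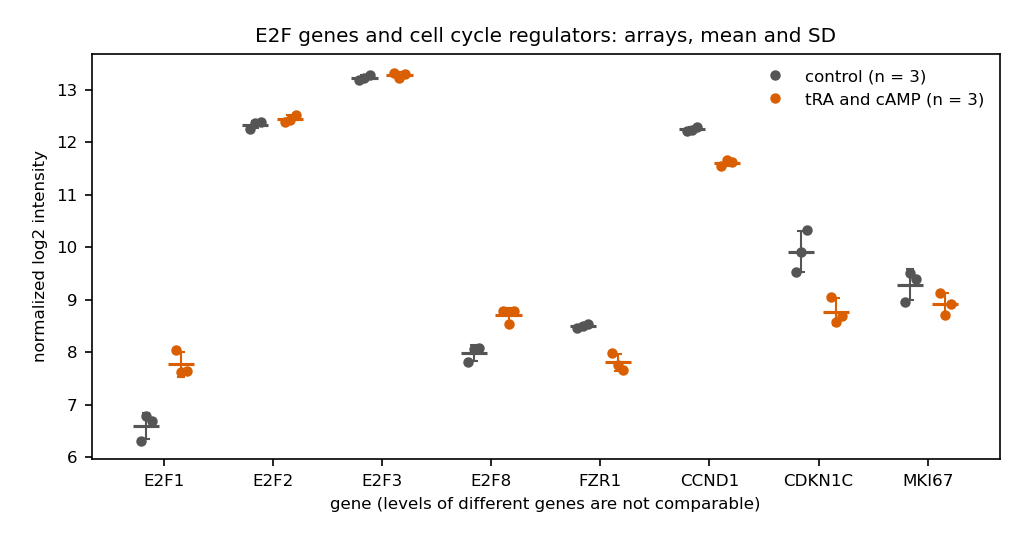
Normalized log2 intensity (y axis) of E2F1, E2F2, E2F3, E2F8, FZR1, CCND1, CDKN1C and MKI67 on the 3 control and 3 treated arrays (points), with mean and SD. Treated arrays lie above the controls for E2F1 and E2F8 and below them for FZR1, CCND1 and CDKN1C; E2F2, E2F3 and MKI67 overlap.

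Read by promoter motif, the members with an E2F form (26 tested) had a median difference of 0.02 and those with a CHR form (24 tested) of -0.02, with 0 called in either. Over all genes tested, 1.94% of 1550 genes with an E2F form and 3.89% of 1774 genes with a CHR form were called, and their medians were 0.01 and 0.00.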

How the data were processed

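Biotinylated cRNA from the 6 samples was read on Illumina bead arrays, per the labels. Raw intensity per probe (mean over its beads, not normalized) and its detection p-value come from the authors' BeadStudio output, per the file headers and the submitters' processing notes. The authors' normalized intensity table (method not given in the sources used here) ranked probes as the raw arrays did and had column medians of 250.1 to 250.2; it was used as an alternative only.

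Signals were corrected and quantile normalized with neqc of limma 3.58.1 (R 4.3.3, offset 16), with 759 negative controls, a number inferred from the steps of the detection values. Of 48803 probes 28098 had 1 gene symbol, 13 several and 20692 none listed; 28059 had a gene number in the RefSeq table, and 0 symbols changed. Of 14923 detected probes, the one with the highest mean raw signal stood for a gene (9944 genes). Groups, from the sample titles, were compared with lmFit and eBayes, Benjamini-Hochberg adjusted over all genes tested. The procedure was tested on simulated data. The 60 members and the lists were chosen with earlier results of these data known. Full values are given for MKI67, the 3 members per role group with the smallest p, and members with a probe of opposite sign at an unadjusted p under 0.05; of the other lists, called genes and the 3 with the smallest p could be named, and exceptions are stated. Promoter sequences are RefSeq's (GRCh38.p14). Same-numbered arrays did not deviate together (correlations -0.05 to 0.06). Plots used matplotlib 3.10.9 in Python 3.11.15.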

Additional observations from a re-analysis of the deposited data

How the results depend on the processing

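Of the 60 genes, 0 were called by limma in 14 of 16 other settings, with 0 to 3 at an unadjusted p under 0.05; the exception was E2F1, with 1 gene called without a filter, without treated replicate 3 and, in an alternative chosen after seeing the data, with a detection limit of 0.05 (the last 2 admit it through treated arrays alone). Leaving out single arrays gave 0 to 1 called members and 0 to 3 with an unadjusted p under 0.05 (3 without control replicate 1, 0 without control replicate 3). That number, 1 as reported, was 2 with the background left in, in the authors' deposited table and with the mean of probes. It was also 2 with a robust fit and variance trend, with the replicate block and with the detection limit of 0.05, and 3 without a filter. POLA1, the single member as reported, was not always among them. Without normalization and with median scaling the single member was MKI67, and POLA1 missed 0.05 (limma, unadjusted p = 0.0699 and 0.0560). With the mean of probes the 2 members were MCM4 and UBE2C, and POLA1 missed it again (limma, unadjusted p = 0.323). Dropping control array 1 or 3, or treated array 2 or 3, also took POLA1 above 0.05 (limma, unadjusted p = 0.0652 to 0.109). The median difference of members was -0.0960 without normalization, where that of all genes was -0.101, and -0.0349 to 0.0305 without single arrays. The number of members with an interval within 1.5-fold, 54 of 56 as reported, was 39 to 55. The lowest, 39, was that without normalization. It was 50 to 52 without single arrays and 55 of 60 genes without a filter. Genes called in all, 252 as reported, were 163 without normalization (26.4% higher, against 42.9%), 130 without a filter, 166 with detection on all 6 arrays and 138 to 197 without single arrays, in fits with fewer samples. Called genes of the other cell cycle lists, 4 as reported, were 2 without normalization, 0 without a filter, 2 with the robust fit and 0 to 2 without single arrays (0 without control replicate 2). Reversed signs, all without a call, were those of CDC25A (-0.0873) and MCM7 (0.0930) with the mean of probes, RRM1 without control replicate 2 (0.0443) or treated replicate 2 (0.0688; range without single arrays -0.200 to 0.0688) and TYMS without control replicate 3 (0.0351) or treated replicate 3 (0.0301; range -0.0580 to 0.0351). The replicate block, whose numbers did not pair the samples, gave 83 higher and 110 lower genes and 0 called members. The cause of these shifts was not tested. For E2F1, CCNE2, MYBL2 and GINS1, low signal over background limits what can be said.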
